A study of Mus musculus with 12 samples.

Results

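The genes described here are 9 members of hormone and growth factor signalling in muscle satellite cells: 3 secreted peptides (Pthlh, Nppc and Ntf3), 4 receptors (Oxtr, Pth1r, Npr2 and Npr3) and a pair of regulators of G protein signalling (Rgs4 and Rgs2). They were picked out of 55385 genes in the deposited count tables because Pthlh, Oxtr, Nppc, Ntf3 and Rgs4 were lower in Keap1 knockout cells, and the other 4 were added as their receptors or relatives. All 9 were matched by gene identifier and all 9 passed the filter on low counts in both sexes. Because 5 of them were selected on the knockout comparison, their knockout values are given as a description without a p-value.

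The samples were satellite cells of hindlimb muscle from C57BL/6J mice, frozen directly after isolation and sequenced as bulk RNA. The 4 groups were female Keap1 KO (mice KO166, KO178 and KO188), female Keap1 Het (Hetz164, Hetz165 and Hetz181), male Keap1 KO (KO240, KO247 and KO255) and male Keap1 Het (Hetz204, Hetz245 and Hetz249), with 3 mice each. The genotype label of the Het mice reads "Keap1 heterogeneous" and their names carry "Hetz", which is taken here as heterozygous, so all mice of both genotypes carried at least 1 altered Keap1 allele and there was no wild type group. The age of the mice, the cells in which Keap1 was deleted and any Cre driver are not given in the sources used here. Nothing in the labels says how the mice were paired or housed. The p-values of KO against Het set the difference of the groups against the spread between mice of the same group, in the 6 libraries of a sex. Those between the sexes use that spread within the groups of all 12 libraries.

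Parathyroid hormone-related protein (Pthlh) acts on the receptor Pth1r, and oxytocin on Oxtr, both of them receptors that signal through heterotrimeric G proteins. C-type natriuretic peptide (Nppc) acts on the guanylyl cyclase Npr2, which makes cyclic GMP, and is cleared by Npr3, which has no cyclase. Neurotrophin-3 (Ntf3) is a growth factor of sensory and motor neurons that is read mainly by the receptor tyrosine kinase TrkC, and muscle is a known source of it. Rgs4 and Rgs2 speed up GTP hydrolysis by G protein alpha subunits and so shorten signals of such receptors. Keap1 is the adaptor that leads the transcription factor NRF2 to degradation, and oxytocin signalling has been linked to muscle stem cell maintenance in ageing mice.

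The 250 bases before the start of each gene were read from RefSeq (GRCm38.p6), where the 9 genes have 12 listed start sites. The windows of Nppc, Rgs4 and Oxtr are printed because they hold the matches nearest to a start among the genes that were lower in KO. Capitals mark a TATA box (TATAAA) in Nppc and Rgs4, short CREB sites (TGACG on the strand shown, or its reverse complement CGTCA) in Rgs4, and an E-box (CACGTG) in Oxtr. The first window is chr1:86670574-86670823, the second is chr1:169747643-169747892 and the third is chr6:112489826-112490075, all on the minus strand and written 5′ to 3′.
Nppc: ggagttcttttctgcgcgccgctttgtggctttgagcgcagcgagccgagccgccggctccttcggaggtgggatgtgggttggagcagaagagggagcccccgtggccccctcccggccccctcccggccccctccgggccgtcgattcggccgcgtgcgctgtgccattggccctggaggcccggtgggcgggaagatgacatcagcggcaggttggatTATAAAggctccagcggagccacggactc
Rgs4: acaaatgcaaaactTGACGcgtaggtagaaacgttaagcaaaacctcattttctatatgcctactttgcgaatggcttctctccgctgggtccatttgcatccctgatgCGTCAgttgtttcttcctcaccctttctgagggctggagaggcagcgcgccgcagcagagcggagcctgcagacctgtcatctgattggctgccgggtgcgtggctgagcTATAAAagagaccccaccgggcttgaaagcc
Oxtr: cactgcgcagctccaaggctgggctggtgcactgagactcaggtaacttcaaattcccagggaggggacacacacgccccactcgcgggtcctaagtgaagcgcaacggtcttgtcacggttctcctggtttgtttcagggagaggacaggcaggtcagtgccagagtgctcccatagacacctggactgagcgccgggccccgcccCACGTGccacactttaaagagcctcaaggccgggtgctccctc
The TATA box lay 29 to 24 bases before the start of Nppc and 31 to 26 bases before that of Rgs4, and 12.4% of all 32851 RefSeq promoter windows of this length held one. The E-box lay 43 to 38 bases before the start of Oxtr, a further one lay 231 to 226 bases before a start of Ntf3, and 6.02% of all windows held one. Short CREB sites stood in windows of Rgs4, Rgs2, Pth1r and Npr3, that is 4 of the 12 starts, against 17.8% of all windows. Each motif was searched on both strands. The NRF2 antioxidant response element core (TGACNNNGC, in 10.2% of all windows), the full CREB site (TGACGTCA, which contains the short one, 1.55%) and the AP-1 site (TGANTCA, 6.75%) were not found in any of the 12 windows. The window of Pthlh held none of the 6 motifs. A match is a string of letters and no evidence of binding, and the absence of a match covers these windows only.

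Total counts were 13042039 to 19273245 per library, and levels are given as CPM, the counts scaled to the size of each library. Nqo1, the NRF2 target commonly used to read out loss of Keap1, was called higher in KO of both sexes: 92.1 ± 15.2 CPM in female KO against 4.42 ± 1.15 CPM in female Het, and 33.7 ± 2.79 CPM in male KO against 3.46 ± 1.22 CPM in male Het (SD, n = 3 each; edgeR quasi-likelihood test, adjusted p = 2.58e-07 and 1.15e-05). Keap1 counts were summed over all exons and cannot check a deletion of some of them; they averaged 11.9 ± 0.969 CPM in female KO and 8.23 ± 1.22 CPM in female Het, and 7.25 ± 0.821 CPM in male KO and 7.73 ± 2.25 CPM in male Het (edgeR adjusted p = 0.186 and 0.936). Another gene overlaps 10.9% of the exonic bases of Keap1 in counting without strand. Nfe2l2, which encodes NRF2, averaged 463 CPM in female KO and 414 CPM in female Het, and 466 CPM in male KO and 419 CPM in male Het (edgeR adjusted p = 0.607 and 0.672). Every library held the satellite cell genes Pax7 (10.1 to 30.0 CPM), Myf5 (889 to 1922 CPM) and Myod1 (907 to 3162 CPM), the last of which marks activated cells.

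In females, 5 of the 9 genes were called lower in KO and none was called higher, the call being a Benjamini-Hochberg adjusted p under 0.05 in edgeR. Over all 14036 genes tested, 0.983% were called lower and 1.29% higher. In males, 1 of the 9, Nppc, was called lower and none higher, against 0.157% lower and 0.704% higher of 13361 genes. All 3 KO libraries stood below all 3 Het libraries for 5 of the 9 in females (10.4% of all genes) and for 2 of the 9, Nppc and Ntf3, in males (7.76% of all genes). The median log2 fold change, KO over Het, was -1.49 over the 9 genes in females and -0.44 in males, where that of all genes was 0.00 and 0.01. Since the genes were chosen for being lower in KO, nothing is read from these shares. In bulk samples, fewer cells of a type and less RNA per cell cannot be told apart.

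**Figure D1:**
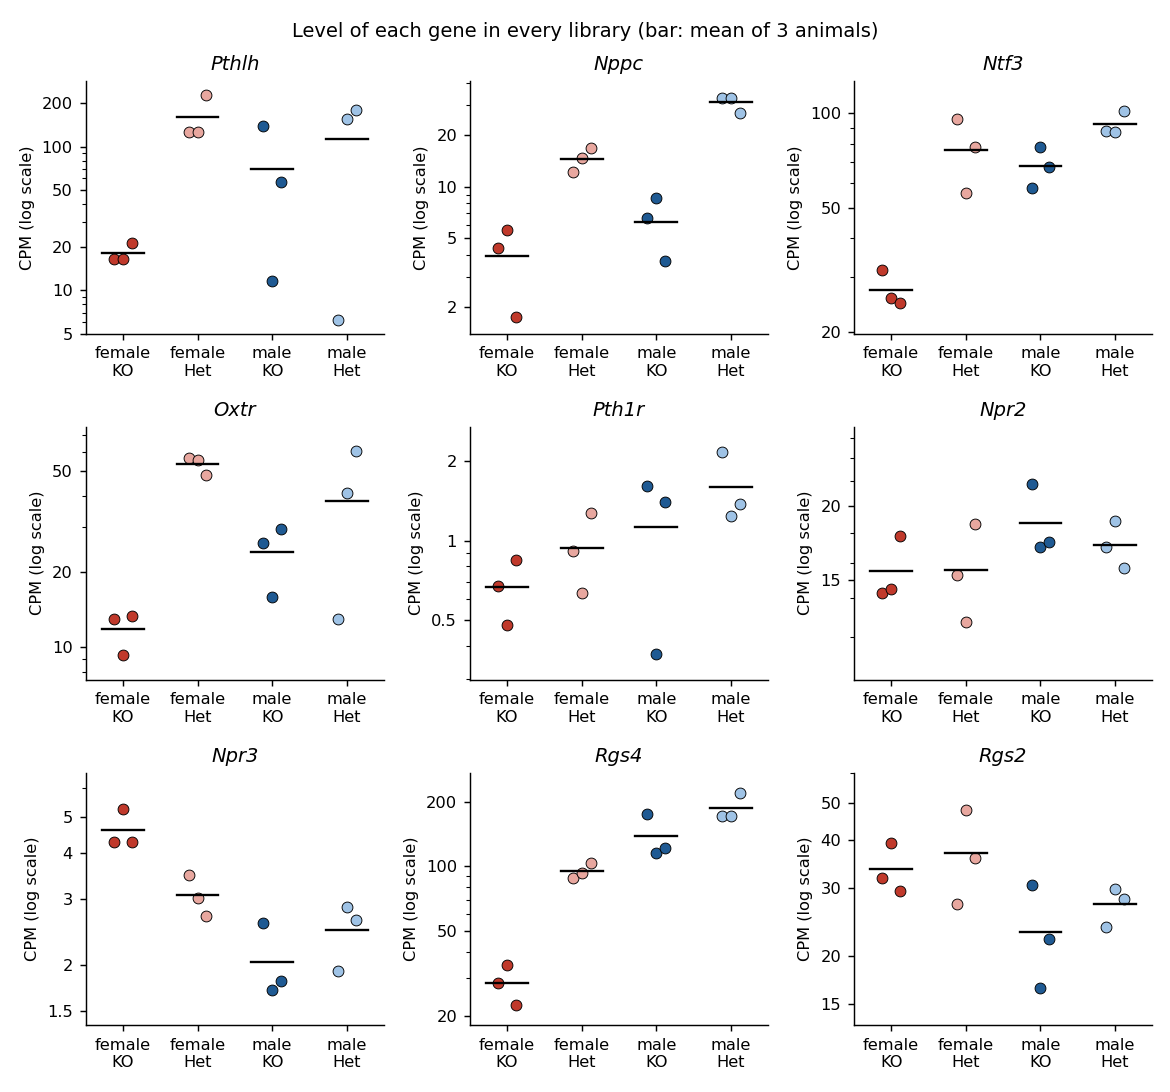
Level of each of the 9 genes in CPM (logarithmic axis) in every library, by sex and genotype; points are mice and bars are means of 3. Pthlh, Nppc, Ntf3, Oxtr and Rgs4 stand lower in all 3 female KO libraries than in all 3 female Het libraries, and the male libraries of Pthlh and Oxtr are widely scattered.

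Among the secreted peptides, Pthlh (ENSMUSG00000048776, chr6:147252101-147264183, GRCm38, minus strand) had the largest difference of the 9 in females. It stood at 16.5, 16.4 and 21.3 CPM in KO166, KO178 and KO188, against 127, 126 and 229 CPM in Hetz164, Hetz165 and Hetz181. The 3 female KO libraries lay close together and far below the lowest Het library. The log2 fold change was -3.15 ± 0.24 (SE), 8.89-fold lower, and it ranged between -3.30 and -2.82 when any 1 of the 6 libraries was left out. In the fit of all 12 libraries, which includes the scattered male values, it was -3.15 and no longer called.

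In males the Pthlh levels were 140, 11.7 and 56.5 CPM in KO240, KO247 and KO255, against 6.24, 156 and 179 CPM in Hetz204, Hetz245 and Hetz249. Both male groups held high and low libraries and overlapped fully: the highest was 11.9 times the lowest in male KO and 28.6 times the lowest in male Het. The lowest of all 12 libraries was a male Het library, Hetz204, which had 81 Pthlh counts where Hetz245 had 2786. The male log2 fold change of -0.69 ± 1.45 had a 95% interval of -4.63 to 3.24, which includes 0 and the female value. With 1 library left out it ran between -1.75 without KO240 and -0.20 without KO247; it was -1.26 without Hetz204, -0.40 without Hetz245 and -0.23 without Hetz249.

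Nppc (ENSMUSG00000026241, chr1:86666291-86670571, minus strand) was the member called lower in both sexes. Female KO libraries held 4.42, 5.64 and 1.74 CPM, against 12.2, 14.7 and 16.7 CPM in female Het. Male KO libraries held 6.58, 8.56 and 3.68 CPM, against 32.9, 33.0 and 27.0 CPM in male Het. KO and Het libraries did not overlap in either sex. The log2 fold change was -1.89 ± 0.34 in females (3.69-fold lower) and -2.30 ± 0.25 in males (4.93-fold lower). With 1 library left out it ran between -2.22 without KO178 and -1.54 without KO188 in females. In males it ran between -2.59 without KO247 and -2.02 without KO255.

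Ntf3 (ENSMUSG00000049107, chr6:126101412-126166910, minus strand) stood at 31.5, 25.7 and 24.7 CPM in female KO, against 96.2, 55.5 and 78.2 CPM in female Het. The male KO libraries had 57.8, 78.3 and 67.6 CPM, against 87.6, 87.5 and 101 CPM in the male Het libraries. KO and Het libraries were apart in both sexes, with a narrow gap in males. The log2 fold change was -1.49 ± 0.19 in females (2.81-fold lower) and -0.44 ± 0.14 in males (1.36-fold lower); only the female one was called.

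Of the receptors, Oxtr (ENSMUSG00000049112, chr6:112473683-112489943, minus strand), the G protein-coupled oxytocin receptor, had 13.0, 9.29 and 13.3 CPM in female KO, against 56.4, 55.8 and 48.5 CPM in female Het. Each female Het library was above every female KO library by a wide margin, with a log2 fold change of -2.17 ± 0.17 (4.52-fold lower). Male KO libraries had 26.0, 15.9 and 29.7 CPM, against 13.0, 41.1 and 60.2 CPM in male Het. The male groups overlapped because Hetz204, the library lowest in Pthlh, was also the lowest male library in Oxtr. The male log2 fold change was -0.67 ± 0.53 with a 95% interval of -1.96 to 0.62; it was -1.08 without Hetz204 and -0.20 without Hetz249.

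Pth1r (ENSMUSG00000032492, chr9:110722085-110747145, minus strand), the receptor for the Pthlh peptide, was close to the detection limit, with 5 to 28 counts per library. It averaged 0.665 ± 0.182 CPM in female KO and 0.940 ± 0.320 CPM in female Het, and 1.13 ± 0.664 CPM in male KO and 1.59 ± 0.496 CPM in male Het (SD, n = 3 each). KO and Het libraries overlapped in both sexes, and the log2 fold changes of -0.49 ± 0.46 in females and -0.46 ± 0.50 in males had 95% intervals that included 0.

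Npr2 (ENSMUSG00000028469, chr4:43631935-43651244, plus strand), the cyclase receptor of C-type natriuretic peptide, had 14.3, 14.5 and 17.8 CPM in female KO, against 15.3, 12.7 and 18.6 CPM in female Het. It had 21.7, 17.1 and 17.3 CPM in male KO, against 17.0, 18.9 and 15.7 CPM in male Het. The groups overlapped in both sexes. The intervals of the log2 fold change, -0.42 to 0.41 in females and -0.24 to 0.49 in males, leave room only for changes much smaller than those of its ligand Nppc.

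Npr3 (ENSMUSG00000022206, chr15:11839896-11907287, minus strand), the clearance receptor, was the one member with higher libraries in female KO: 4.28, 5.28 and 4.27 CPM, against 3.49, 3.03 and 2.70 CPM in female Het. These groups did not overlap, a pattern that 11.9% of all genes showed in this direction, and the log2 fold change of 0.58 ± 0.26 was not called. In males it had 2.59, 1.71 and 1.81 CPM in KO, against 1.93, 2.86 and 2.64 CPM in Het, with overlapping libraries and a log2 fold change of -0.28 ± 0.33.

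Rgs4 (ENSMUSG00000038530, chr1:169741477-169747642, minus strand) had 28.5, 34.8 and 22.7 CPM in female KO, against 88.3, 93.3 and 103 CPM in female Het. In males it had 176, 116 and 122 CPM in KO, against 172, 171 and 219 CPM in Het. The female groups were well apart, whereas the highest male KO library, KO240, stood above the lower pair of male Het libraries. The log2 fold change was -1.73 ± 0.17 in females (3.32-fold lower) and -0.44 ± 0.17 in males (1.36-fold lower), and only the female one was called.

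Rgs2 (ENSMUSG00000026360, chr1:143999338-144004161, minus strand), which acts mainly on the Gq class of alpha subunits and was called in neither sex, had 31.9, 39.4 and 29.5 CPM in female KO, against 27.3, 48.0 and 36.0 CPM in female Het. It had 30.6, 16.5 and 22.2 CPM in male KO, against 23.8, 29.8 and 28.2 CPM in male Het. Libraries overlapped in both sexes, and the log2 fold changes were -0.15 ± 0.20 in females and -0.24 ± 0.21 in males.

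**Figure D2:**
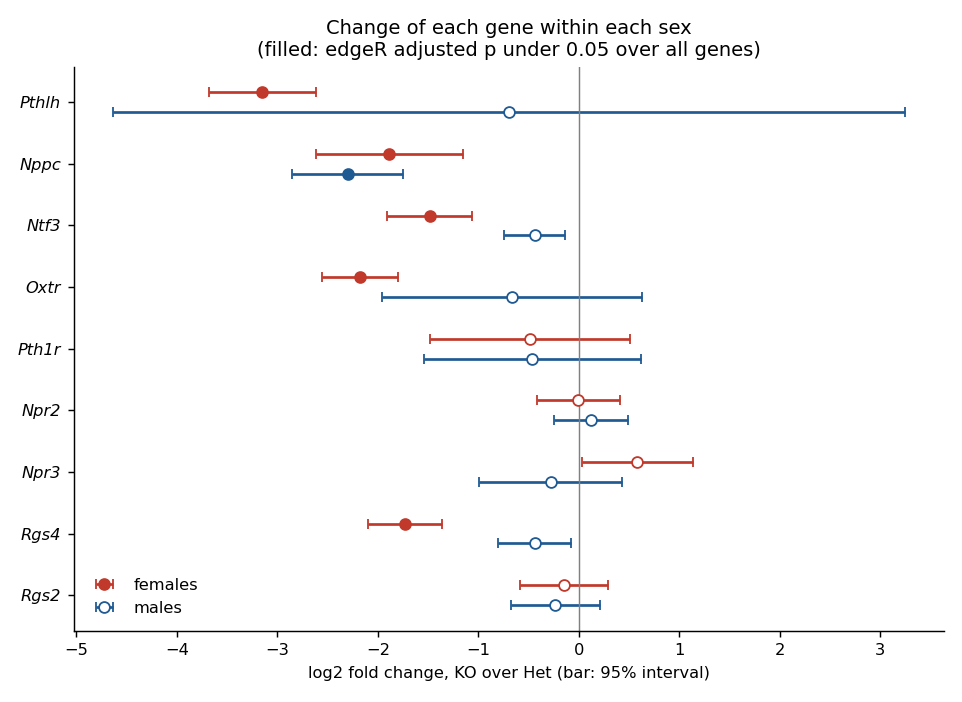
Log2 fold change of each of the 9 genes, KO over Het, with its 95% interval, in females and in males; filled points were called by edgeR. In females 5 intervals lie well below 0, in males that of Nppc does, and the male interval of Pthlh runs between -4.63 and 3.24.

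Corrected for exon length, the mean level (CPM per kilobase) was highest for Pthlh in female Het, at 99.2. In male Het, Pthlh averaged 70.2 with 1 very low library, and Rgs4 followed at 60.5 with all libraries close together. In female KO, Ntf3 had the highest level at 15.9 CPM per kilobase, followed by Pthlh at 11.2, Rgs2 at 9.26 and Rgs4 at 9.24. The mean of Pth1r lay below that of Pthlh, and the means of Npr2 and Npr3 below that of Nppc, in all 4 groups: Pth1r stood at 0.227 to 0.543, Npr3 at 0.217 to 0.491 and Npr2 at 3.32 to 4.01 CPM per kilobase. Single KO libraries reversed the order of Nppc and Npr2. Npr2 stood above Nppc in KO188 (3.81 against 1.67 CPM per kilobase) and in KO255 (3.72 against 3.53). Oxtr had 2.47 in female KO and 11.2 in female Het.

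The order of the 4 groups differed from gene to gene. For Nppc male Het stood above female Het, and female Het above male KO, each without overlap, while male KO and female KO overlapped. For Rgs4 both male groups stood above female Het, and female Het above female KO, with male Het and male KO overlapping. For Ntf3 and Oxtr the upper 3 groups overlapped their neighbours. Female KO stood apart below all of them for Ntf3. For Oxtr it stood apart below male KO, the next group, but the male Het library Hetz204 (13.0 CPM) lay within the female KO range of 9.29 to 13.3 CPM. For Pthlh each group overlapped its neighbour, because of the male scatter. Pth1r, Npr2 and Rgs2 showed overlapping neighbours throughout, and for Npr3 female KO stood apart above female Het.

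The difference between the female and the male change was largest in size for Pthlh, at -2.45 on the log2 scale (female minus male). It was -1.50 for Oxtr, -1.29 for Rgs4, -1.04 for Ntf3, 0.87 for Npr3 and 0.42 for Nppc. None of the 9 was called by edgeR in the fit of all 12 libraries, in which 0.00677% of 14772 genes were called. At an unadjusted p under 0.05 there were 4 of the 9, against 12.4% of all genes, and DESeq2 called 2, Rgs4 and Ntf3, against 1.61% of all genes. Rgs4 and Ntf3 were also called by edgeR without the filter on low counts and without Hetz165, where their differences were -1.30 and -1.23. These are the changes on which the genes were chosen, so the values describe them, no p is given and nothing is read from the counts.

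Between the sexes, 2 of the 9 genes were called lower in female than in male Het cells, where 5.44% of genes were. Rgs4 was lower in females (log2 fold change -0.998 ± 0.176, female over male, edgeR adjusted p = 0.00198), and so was Nppc (-1.11 ± 0.31, adjusted p = 0.0309). The Nppc call was lost without any 1 of the 6 Het libraries, with adjusted p between 0.0585 and 0.111. In KO cells 2 of the 9 were called lower in females (11.1% of genes) and 1 higher (9.31% of genes). The lower ones were Rgs4 (-2.28 ± 0.18) and Ntf3 (-1.33 ± 0.18), and the higher one was Npr3 (1.16 ± 0.27, edgeR adjusted p = 0.00711). Female KO libraries stood below all male KO libraries for 3 of the 9 (18.0% of genes) and above them for 1 (20.1% of genes), and 20.4% of genes were called in either direction. Both comparisons use libraries on which Pthlh, Oxtr, Nppc, Ntf3 and Rgs4 were chosen. The low female KO values of Rgs4 and Ntf3 were part of that choice. For this reason no p is given for them in KO, and nothing is read from the counts. The female and male libraries came from separate count tables, and all 10 endothelial markers were called between the sexes in both genotypes, with a summed level of 51.7 to 87.3 CPM in female KO against 120 to 306 CPM in male KO, and 63.9 to 69.4 CPM in female Het against 193 to 206 CPM in male Het. In KO, 6 of the 10 satellite cell markers were also called. So were 6 of 10 fibro-adipogenic, 5 of 9 pericyte, 5 of 10 myofibre and 5 of 10 Schwann cell markers tested, but only 1 of 13 leukocyte markers. In Het, 5 of 8 tenocyte and 4 of 10 fibro-adipogenic markers were called, but only 1 of 10 satellite cell markers. Over all genes, 10.2% were called in either direction in Het. Sex cannot be told apart from a difference in preparation, and the part of RNA from endothelial or other cells in these values was not tested.

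**Figure D3:**
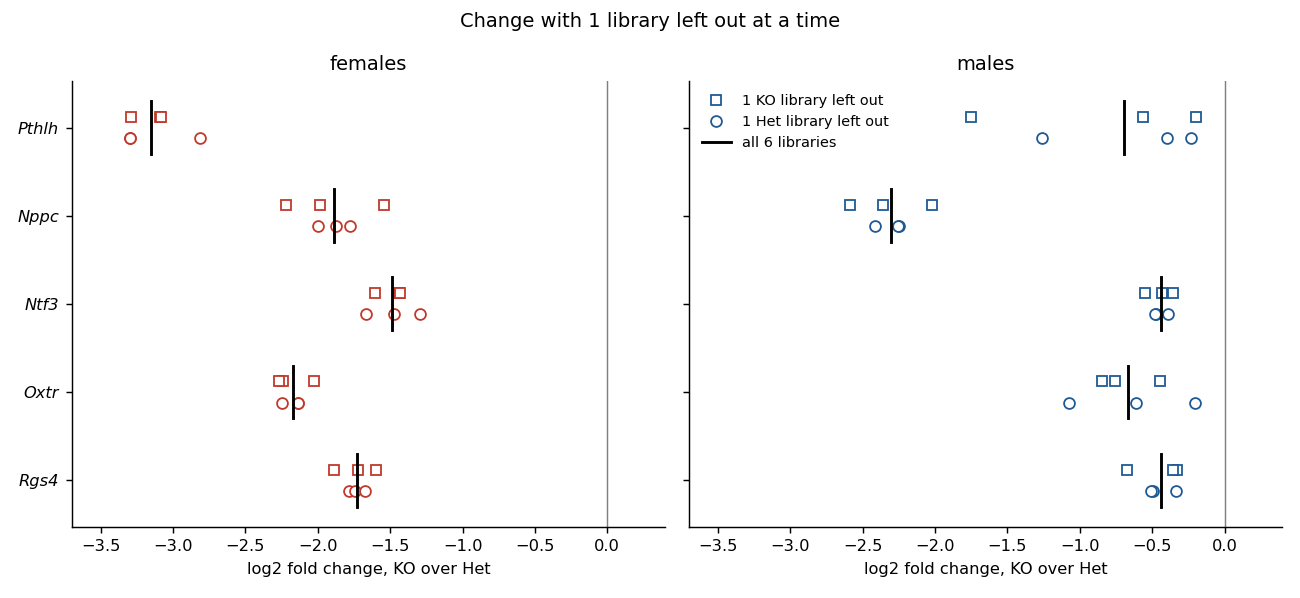
Log2 fold change, KO over Het, of Pthlh, Nppc, Ntf3, Oxtr and Rgs4 with 1 library left out at a time (squares, a KO library; circles, a Het library) beside the value over all 6 libraries (line), in females and in males. Female values stay below -1 in every case, and the male values of Pthlh and Oxtr move most.

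The surrounding pathways were read from 11 lists with 160 other genes. In females 6 of the 108 that could be tested were called, 3 higher and 3 lower, which is 5.56% against 2.27% of all genes, and in males 2 of 103, which is 1.94% against 0.861%. The median log2 fold change of the listed genes was -0.09 in females and 0.03 in males, close to that of all genes. The lists were chosen with earlier results of these data known, so nothing is read from these shares. The p-values of single listed genes below carry the same limit.

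Vipr2 (chr12:116077726-116146261), a class B receptor for vasoactive intestinal peptide that belongs to the same receptor class as Pth1r, rose in KO of both sexes. It averaged 12.9 ± 4.63 CPM in female KO against 2.17 ± 0.288 CPM in female Het (log2 fold change 2.57 ± 0.29, edgeR adjusted p = 0.000302). It averaged 11.5 ± 2.12 CPM in male KO against 2.34 ± 1.29 CPM in male Het (2.32 ± 0.34, adjusted p = 0.00485), a call lost without Hetz249 (adjusted p = 0.0682). It was the 1 called gene of 6 tested in its list in females and of 5 in males.

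Pcsk5 (chr19:17432319-17837632), a convertase that cleaves precursor proteins in the secretory pathway, fell in both sexes. It averaged 16.6 ± 3.51 CPM in female KO against 38.4 ± 1.42 CPM in female Het (log2 fold change -1.21 ± 0.17, edgeR adjusted p = 0.00211). It averaged 28 ± 8.37 CPM in male KO against 53.2 ± 4.59 CPM in male Het (-0.92 ± 0.19, adjusted p = 0.0475), and the male call was lost without Hetz204, Hetz245, Hetz249 or KO240 (adjusted p 0.106 to 0.241). It was the 1 called gene of 9 tested in the prohormone processing list in females and of 7 in males.

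Among the 26 tested effectors of cyclic AMP and phospholipase C, 3 were called in females. Prkar2b (chr12:31958476-32061296), a regulatory subunit of protein kinase A, rose (11.8 ± 0.306 CPM in KO, 4.597 ± 1.19 CPM in Het; log2 fold change 1.36 ± 0.23, edgeR adjusted p = 0.00691). Adcy2, an adenylyl cyclase, rose (45.7 ± 3.57 CPM in KO, 29.4 ± 1.86 CPM in Het; 0.64 ± 0.14, adjusted p = 0.0357), and the cyclic AMP phosphodiesterase Pde4b fell (831 ± 177 CPM in KO, 1483 ± 235 CPM in Het; -0.84 ± 0.18, adjusted p = 0.0328). In the natriuretic peptide and cyclic GMP list, 1 of 9 tested genes was called in females: Pde3b, a phosphodiesterase held back by cyclic GMP, fell (20.5 ± 0.480 CPM in KO, 33.1 ± 3.66 CPM in Het; -0.69 ± 0.15, adjusted p = 0.0321). The calls of Adcy2, Pde4b and Pde3b were each lost without certain single libraries: Adcy2 without Hetz164, Hetz181 or any KO library (adjusted p 0.0937 to 0.159), Pde4b without Hetz181, KO166 or KO188 (0.118 to 0.165), and Pde3b without any library but Hetz165 (0.0732 to 0.142). In males these lists had no call by edgeR; 1 and 6 of their genes had an unadjusted p under 0.05 in the cyclic GMP list and the cyclic AMP list, and DESeq2 called 1 in the cyclic AMP list. Their smallest p belonged to Pde3b (-0.49 ± 0.17, edgeR adjusted p = 0.272) and to Pde8a, another cyclic AMP phosphodiesterase (-0.75 ± 0.20, adjusted p = 0.126). The male log2 fold change of Adcy2 was 0.52 ± 0.15 (edgeR adjusted p = 0.163), near the female value. Prkar2b had -0.22 ± 0.27 in males (adjusted p = 0.812) and Pde4b 0.00 ± 0.14 (adjusted p = 0.999).

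The remaining lists gave no call by edgeR in either sex, and their genes of smallest p are given here by value. Over all genes tested, 17.9% in females and 12.4% in males had an unadjusted p under 0.05, and DESeq2 called 5.15% in females and 2.1% in males. Bdnf, another neurotrophin, had a log2 fold change of -0.99 ± 0.26 in females (edgeR adjusted p = 0.0763); 14.4% of its exons overlap another gene in counting without strand, and it passed with DESeq2 (0.0145), without the filter (0.0169) and in the fit of all libraries (0.0300). DESeq2 called 3 of the 4 tested neurotrophin genes in females, and 3 had an unadjusted p under 0.05; in males these counts were 0 and 2. Sort1, a sorting receptor for neurotrophin precursors, had 0.76 ± 0.22 in males (edgeR adjusted p = 0.161) and 0.81 ± 0.23 in females (adjusted p = 0.0942). In the other RGS genes, 2 of 11 in females and 1 of 10 in males had an unadjusted p under 0.05 and DESeq2 called none. Rgs12 had 1.16 ± 0.38 in females (edgeR adjusted p = 0.143) and -0.23 ± 0.69 in males (adjusted p = 0.941). Rgs16 had -0.55 ± 0.24 in males (adjusted p = 0.360) and -0.53 ± 0.21 in females (adjusted p = 0.221). Another gene overlaps 10.1% of the exonic bases of Rgs16.

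For G protein subunits, 2 of 22 in females and 2 of 21 in males had an unadjusted p under 0.05, and DESeq2 called 2 in females and none in males. Gng12 had a log2 fold change of -0.48 ± 0.15 in females (edgeR adjusted p = 0.119), and Gnas, the stimulatory alpha subunit, -0.44 ± 0.12 in males (adjusted p = 0.159), with 21.6% of its exons shared with another gene. Of 12 CREB and cyclic AMP-responsive genes, 1 in females and 2 in males had an unadjusted p under 0.05 and DESeq2 called none; the coactivators had 0.54 ± 0.20 for Crtc3 in females (adjusted p = 0.197) and -0.46 ± 0.15 for Crtc1 in males (adjusted p = 0.227). Of 7 receptor kinases and arrestins, 0 in females and 1 in males had an unadjusted p under 0.05 and DESeq2 called none; Grk3 had -0.43 ± 0.32 in females (adjusted p = 0.505) and 0.84 ± 0.33 in males (adjusted p = 0.318). The vasopressin receptor Avpr1a had -1.10 ± 0.62 in females (adjusted p = 0.370) and 0.52 ± 0.39 in males (adjusted p = 0.649), with no unadjusted p under 0.05 and no DESeq2 call in its list. No gene of the PTH family could be tested.

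**Figure D4:**
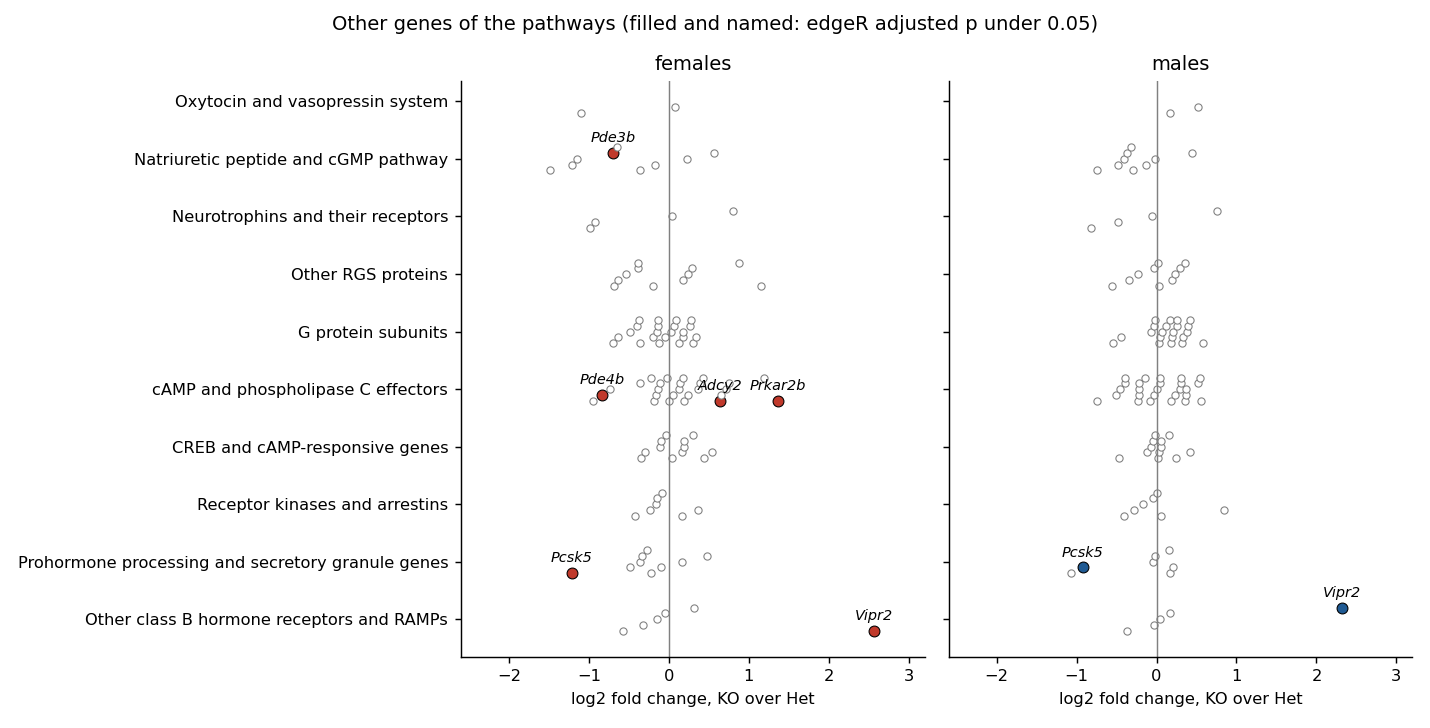
Log2 fold change, KO over Het, of the tested genes of 10 pathway lists in females and in males; each point is a gene, and filled, named points were called by edgeR. Vipr2 lies far to the right and Pcsk5 to the left in both panels, and most other genes lie within 1 unit of 0.

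The partners of the 9 genes were unevenly present. Of the other ligands for these receptors, Pth had 0 counts in all 12 libraries, where 3 counts would be 0.144 to 0.231 CPM, and Oxt had 32 counts in all. Nppa and Nppb, the relatives of Nppc that act on Npr1, had 1 count each. Npr1 averaged 1.06 ± 0.453 CPM in female KO and 0.715 ± 0.279 CPM in female Het, and 2.06 ± 2.15 CPM in male KO and 2.68 ± 0.572 CPM in male Het. Another gene overlaps 11.7% of its exonic bases.

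Ntrk3, which encodes TrkC, had 48 counts over the 12 libraries and at most 9 in 1 library, so the main receptor of neurotrophin-3 was near the detection limit in these cells while the ligand was at 24.7 CPM or more. Ngfr, the low-affinity neurotrophin receptor, averaged 7.95 ± 1.95 CPM in female KO and 15.1 ± 5.09 CPM in female Het, and 5.96 ± 2.58 CPM in male KO and 10.5 ± 2.50 CPM in male Het; its log2 fold changes of -0.92 ± 0.27 in females and -0.82 ± 0.30 in males were not called (edgeR adjusted p = 0.101 and 0.283). Furin, a convertase that can cleave Nppc and neurotrophin precursors, stood at 104 ± 12.7 CPM in female KO and 88.7 ± 15.8 CPM in female Het, and at 83.2 ± 4.83 CPM in male KO and 91.5 ± 9.93 CPM in male Het. Lnpep, an oxytocin-cleaving aminopeptidase, stood at 163.6 ± 14.8 CPM in female KO and 155 ± 3.69 CPM in female Het, and at 131 ± 19.5 CPM in male KO and 117 ± 7.55 CPM in male Het.

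Across the 12 libraries, with each sex centred on its own mean, log2 CPM of Pthlh and Oxtr had a Pearson r of 0.90, Ntf3 and Rgs4 of 0.87, and Oxtr and Rgs4 of 0.83, whereas Pthlh and Nppc had 0.35. The libraries of both genotypes enter these values, so the difference between KO and Het is part of each r, and no p is given. Of 10915 genes compared, those most like Pthlh were Cdkn1a, a cell cycle inhibitor (r = 0.92), Dnajc24 (0.91) and Zfp160 (0.89). Those most like Oxtr were Pex19, a peroxisome assembly factor (0.96), Pm20d1, a secreted enzyme of N-acyl amino acids (0.95), and Btg2, an antiproliferative gene (0.92). Those most like Nppc were Prokr1, a prokineticin receptor (0.93), Chrdl2, a secreted binder of bone morphogenetic proteins (0.92), and Pgm5 (0.91).

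Ntf3 was most like Gpx3, a secreted glutathione peroxidase (r = 0.99), Psd3 (0.97) and the tetraspanin Tspan7 (0.97). Rgs4 was most like Thbs2, a matrix thrombospondin (0.96), Neu2, a sialidase (0.95), and Ppp1r15a, a phosphatase subunit of the stress response (0.94). Of these 15 genes, Thbs2 and Chrdl2 were called lower in KO of both sexes: Thbs2 had log2 fold changes of -2.46 ± 0.15 in females and -1.20 ± 0.23 in males, and Chrdl2 -1.90 ± 0.21 in females and -1.37 ± 0.18 in males. Cdkn1a, Pm20d1, Btg2, Gpx3, Psd3, Tspan7, Neu2 and Ppp1r15a were called lower in females only. Over all genes, 0.983% were called lower in females and 0.157% in males. Since the 15 were picked for likeness to genes chosen for being lower in KO, nothing is read from these calls.

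Markers of cell types were summed beside these results. The 10 satellite cell markers summed to 8702 to 11330 CPM in female KO, against 12810 to 14030 CPM in female Het, and to 18640 to 20180 CPM in male KO, against 16660 to 20200 CPM in male Het. No satellite marker was called by edgeR, though 3 in females and 2 in males had an unadjusted p under 0.05 and DESeq2 called 2 in females and none in males. Leukocyte markers summed to 37.3 to 55.9 CPM in female KO, against 89.9 to 125 CPM in female Het, with 2 of 14 tested, Cd74 and Lyz2, called lower; in males the sums were 55.0 to 73.3 CPM in KO, against 29.1 to 89.0 CPM in Het. These female sums moved in the same direction as Pthlh, Oxtr, Nppc, Ntf3 and Rgs4, and their part in those differences was not tested. The largest part of the satellite sum was Sdc4, with means of 4873 CPM in female KO and 7269 CPM in female Het. Pax7 averaged 12.5 CPM in female KO and 13.0 CPM in female Het. Itga7 (522.9 against 465.9 CPM) and Cdh15 (177.6 against 124.5 CPM) averaged higher in female KO, and the other satellite markers averaged lower. Median log2 fold changes in females were -0.36 for satellite cell, -0.96 for leukocyte, -0.41 for fibro-adipogenic and -0.23 for pericyte markers. They were 0.96 for myofibre, 0.44 for endothelial, 0.43 for tenocyte, 0.18 for Schwann cell and 0.12 for red blood cell markers. Myofibre markers summed to 134.5 to 700.5 CPM in female KO, against 121 to 352.8 CPM in female Het. The 10 fibro-adipogenic markers summed to 4407 to 5206 CPM in female KO, against 4659 to 7156 CPM in female Het, and to 3768 to 4472 CPM in male KO, against 2832 to 4534 CPM in male Het, with Pdgfra at 1.75 to 4.72 CPM. The endothelial marker Pecam1 stood at 6.84 to 41.5 CPM and the leukocyte marker Ptprc at 0.23 to 3.28 CPM, and no marker list had a gene at 0 in all 12 libraries.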

How the data were processed

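RNA was measured in 12 libraries (Smart-Seq2 cDNA cut with Tn5, per the labels' protocols). Per the file headers, the authors summed paired fragments over the exons of each gene with featureCounts 2.0.0 on the Ensembl GRCm38 release 99 annotation, without strand; the deposited values are raw counts, 1 table per sex. STAR, Subread, DESeq2 and mm10 are named in the submitters' processing notes. One deposited column was screened under the looser unit of expected counts; its values are whole, as in all columns, and nothing was rounded. Of 55385 genes, 55144 had a symbol. No replicate pair agreed within sampling noise.

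KO was set against Het within each sex (6 libraries) with edgeR 4.0.16 in R 4.3.3: TMM scaling, filterByExpr with a minimum count of 10, robust quasi-likelihood F test, Benjamini-Hochberg adjustment over all genes tested, threshold 0.05. Differences between sexes and between their changes used 1 fit of all 12 libraries. Levels are CPM with TMM scaling over all 12 libraries; totals of 13042039 to 19273245 make 3 counts 0.144 to 0.231 CPM, and intervals cover the spread of the libraries or counting error only. Likeness used log2 CPM with a prior count of 2 among genes at a mean log2 CPM of at least 1. The edgeR steps were also run on simulated counts with a spread that followed the mean level only. That run does not cover genes of wide scatter such as Pthlh in males, and nothing here rests on it. Alternatives were DESeq2 1.42.0, RLE scaling, no filter, the fit of all 12 libraries, a change of at least 2-fold and each library left out.

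Named genes are the 9 members, Keap1, Nfe2l2 and Nqo1, the genes called in each pathway list (at most 4 per list and sex, otherwise the 1 of smallest p), the 3 genes most like each of 5 members, and, for their place beside a member, the ligands, receptors and convertases of the partner paragraphs. The members and lists were chosen with earlier results of these data known.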

Additional observations from a re-analysis of the deposited data

How the results depend on the processing

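The number of members called lower was 5 in females and 1 in males with DESeq2, RLE scaling, no filter and each library left out; the fit of all 12 libraries called 4 in females, Pthlh being lost there at a log2 fold change of -3.15, and 1 in males. The members were chosen on this contrast, so nothing is read from these numbers. No direction reversed among called values. Counts of calls moved more. In females 319 genes were called, 723 with DESeq2, 1000 without the filter on low counts, 207 at 2-fold or more, and 144 to 1479 with 1 library left out. In males 115 were called, 280 with DESeq2, 375 without the filter, 61 at 2-fold or more, and 41 to 294 with 1 library left out. The difference of the changes gave 1 call, 238 with DESeq2, 358 without the filter, and 0 to 206 with 1 library left out. Female against male gave 3016 calls in KO and 1501 in Het, and 2001 to 2578 in KO and 668 to 1572 in Het with 1 library left out. Of the pathway genes 6 were called in females, 13 with DESeq2, 14 without the filter, and 3 to 14 with 1 library left out; in males 2, 4 without the filter, and 0 to 6 with 1 library left out. The cause of these moves was not tested. No paired analysis was possible because the mouse numbers differ between all groups. Pth1r, Ntrk3 and Oxt are limited by depth.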
